A study of Mus musculus with 2 samples.

Results

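The genes described are 9 interferon response genes, Irf7, Irf9, Stat2, Isg15, Bst2, Ifi27l2a, Igtp, Irgm1 and Ifi47. They were taken by symbol from the gene annotation of a single-cell RNA count matrix, in which all 9 of the 9 symbols were found among 31053 genes. Interferons are secreted proteins that cells release after sensing viral or other nucleic acids. Type I interferon acts through its receptor and the Jak kinases to bring Stat2 and Irf9 into a complex that binds the interferon-stimulated response element (ISRE) of its target genes, whereas type II interferon acts mainly through the gamma-activated site (GAS). In bone marrow, interferon signalling is known to change the division and output of blood progenitors.

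The cells were mouse bone marrow progenitors, negative for lineage markers and Sca1 and positive for c-Kit (LKS-), profiled with the 10x Genomics 3′ chemistry, which tags each captured transcript with a unique molecular identifier (UMI). There was 1 library per genotype, both from C57BL/6 mice. The Control library pooled marrow from 1 Runx1f/f mouse and 1 Runx1f/- mouse, the latter carrying a germline Runx1 mutation on 1 allele, and it held 6906 cells. The library labelled Runx1 KO held 7889 cells. What drove its deletion, how many mice it came from, their age and any agent they received have no entry in the labels (not given in the sources used here). A description field of the labels speaks of embryos, while the tissue and extraction fields name hind limb bone marrow, which was followed. With 1 library per genotype no difference can be set against a spread between mice, so no p-value is given, and every interval printed is an exact 95% interval that covers counting error only.

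Control held 162278272 UMIs (a median of 21593.5 in a cell), against 145590840 in the library labelled Runx1 KO (a median of 16092). Mitochondrial UMIs reached 10% in 2.74% and 4.12% of cells, and 13 cell barcodes occurred in both libraries. Runx1, the targeted gene, was at 143 CPM in Control (UMIs of the gene per 1000000 UMIs of the library) and 361 CPM in the library labelled Runx1 KO, a ratio of 2.53 (2.49 to 2.57). Its transcript was therefore higher, not lower, under the knockout label. Which exons were removed has no entry in the labels, and 3′ UMIs do not check a deletion elsewhere in the gene. The deposited annotation places the cells in 18 classes, each named by a gene except 1 called Unannotated. The 9 named classes with at least 50 cells in each library are compared here. The Unannotated cells (143 and 175), which no gene names, reach 50 too but were left out of the class comparison, and their values are given separately. Among all classes, the Pf4 class had the highest summed megakaryocyte markers in both libraries, the Hba-a2 and Car1 classes ranked first and second for erythroid markers, the Fcnb and Gstm1/CD63 classes first and second for neutrophil progenitor markers, and the Ltf class first for mature neutrophil markers. For multipotent progenitor markers the CD34 class ranked second in Control and first in the other library. The 8 monocyte progenitor markers summed to 1771 and 1887 CPM in the Ly86 class.

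All 9 are protein-coding genes, placed here by GENCODE M21 on GRCm38. The signalling factors are Irf7 (chr7:141262706-141266481, minus strand), Irf9 (chr14:55603571-55610030, plus) and Stat2 (chr10:128270559-128292849, plus). The effectors are Isg15 (chr4:156199424-156200818, minus), Bst2 (chr8:71534255-71537456, minus) and Ifi27l2a (chr12:103442167-103443680, minus). The GTPases Igtp (chr11:58199556-58207591, plus), Irgm1 (chr11:48861968-48871683, minus) and Ifi47 (chr11:49076587-49096974, plus) lie on the same chromosome.

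The promoters of 8 of the 9 genes were searched for the sequence through which interferon is known to act. The promoters came from RefSeq on GRCm38.p6 and run from 250 bases before to 50 bases after the start site, and Ifi27l2a was not matched. The ISRE core was searched on both strands as GAAA, any 2 bases and GAAA again (TTTC, 2 bases and TTTC on the other strand), and matches may overlap each other. It occurred in 5 of the 8 genes (62.5%), in 43 of 107 other interferon pathway genes with a promoter (40.2%) and in 1079 of all 27025 genes (3.99%). The 5 windows of 60 bases that hold the matches are shown 5′ to 3′ on the gene's strand, with the matched bases in capitals, because they show how the repeats are arranged in genes that differed to very different degrees between the libraries. They are chr4:156200856-156200915 (minus strand) for Isg15, chr8:71537565-71537624 (minus) for Bst2, chr10:128270251-128270310 (plus) for Stat2, chr11:48871421-48871480 (minus) for Irgm1 and chr11:58199496-58199555 (plus) for Igtp.
Isg15: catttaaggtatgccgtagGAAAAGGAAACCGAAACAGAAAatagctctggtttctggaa
Bst2: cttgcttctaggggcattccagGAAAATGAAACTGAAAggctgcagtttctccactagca
Stat2: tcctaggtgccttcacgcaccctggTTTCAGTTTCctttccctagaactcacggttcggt
Irgm1: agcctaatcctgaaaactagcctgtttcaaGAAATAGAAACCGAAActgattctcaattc
Igtp: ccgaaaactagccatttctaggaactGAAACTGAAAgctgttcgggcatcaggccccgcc

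Isg15 carried 3 overlapping matches in 22 bases, at positions -78 to -57 from its start site. Bst2 and Irgm1 carried 2 overlapping matches each, in 16 bases, and Igtp and Stat2 a single match each, the one in Stat2 on the other strand. The matches of Irgm1 (-30 to -15) and Igtp (-34 to -25) lay closest to the start site, those of Bst2 (-130 to -115) and Stat2 (-222 to -213) farther out. The Irgm1 window falls inside the gene's longest GENCODE span, whose first start site lies farther upstream. The letters of the ISRE core were not in the promoters of Irf7, Ifi47 and Irf9 (2 start sites for Irf9). The GAS, searched as TTCNNNGAA, which is its own reverse complement, was present in Bst2 and Igtp, 2 of 8 genes, against 9.55% of all genes. It began at position -136 in Bst2, where its last bases overlap the ISRE core, and at -45 in Igtp. The RUNX motif TGTGGT, on either strand, was present in Stat2 alone of the 8 genes, against 18.9% of all genes. A match describes the letters in this window and is not a measured binding site.

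**Figure D1:**
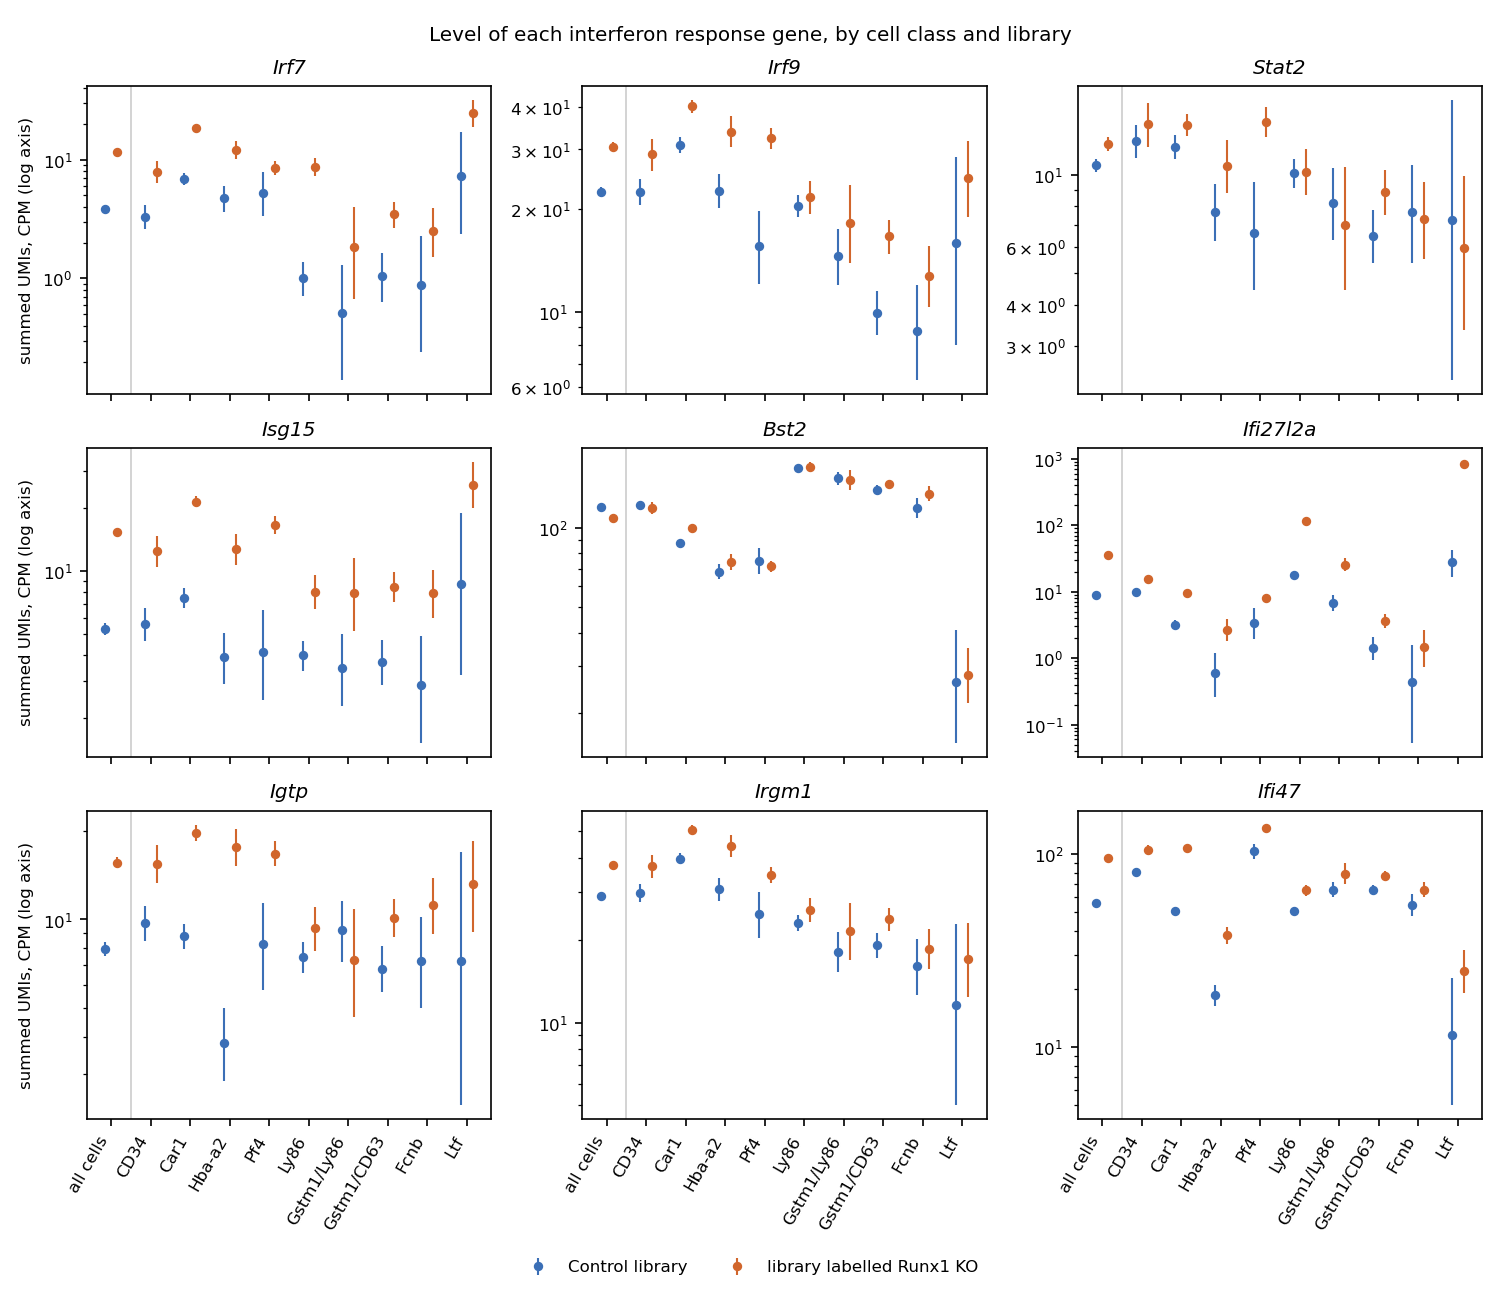
Level of each of the 9 genes (CPM, log axis, a separate scale in each panel) in all cells and in each of the 9 compared classes, for Control (blue) and the library labelled Runx1 KO (orange). Points are 1 library each and bars are exact Poisson 95% intervals. For Isg15 and Irf7 the orange point lies above the blue one in all 9 classes, while for Bst2 the points lie close together in every class.

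Over all cells, 7 of the 8 interferon response genes that reached the minimum were higher in the library labelled Runx1 KO than in Control. The minimum was a mean of 10 CPM over the libraries and 100 UMIs in all, and Irf7 alone fell short of it, on the first count. Ifi27l2a, Isg15, Igtp and Ifi47 were at least 1.5-fold higher, which is 4 of 8, and none was at least 1.5-fold lower. Of these 4, Ifi27l2a, Isg15 and Igtp were under 10 CPM in Control (8.91, 5.33 and 7.94 CPM). They reached the minimum through the library where they were higher. The 9 genes were also chosen with earlier results of these data known, so the shares of all genes are a background and not a test. Of all 7776 genes that reached the minimum, 5.41% were at least 1.5-fold higher, 2.51% at least 1.5-fold lower and 50.7% higher by any amount. The median log2 ratio was 0.61 over the 8 genes and 0.0041 over all genes. In each summed library, more cells that carry a gene and more RNA per cell give the same CPM, and the class makeup of the libraries differed. The Pf4 class was 3.21% of Control and 22.6% of the other library, and the Ly86 class 19.2% and 7.01%. When the 9 compared classes were weighted in both libraries by their share of Control cells, the ratios of the 9 genes ran from 1.05 for Bst2 to 5.26 for Ifi27l2a. This weighting, called the class makeup of Control below, leaves out the Unannotated cells and the classes not compared. Its ratios can therefore differ from those over all cells through the cells left out as well as through the makeup.

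Among the signalling factors, Irf7 differed most. Irf7, the interferon regulatory factor that amplifies type I interferon production, was at 3.86 CPM in Control and 11.6 CPM in the library labelled Runx1 KO, a ratio of 3.00 (2.73 to 3.29). Irf9, the DNA-binding subunit of the complex on the ISRE, was at 22.5 and 30.6 CPM, a ratio of 1.36 (1.30 to 1.42). Stat2, the subunit that is specific to interferons of types I and III, was at 10.7 and 12.4 CPM, a ratio of 1.16 (1.09 to 1.24). All 3 factors were thus higher under the knockout label, by more than counting error, but only Irf7 by more than 1.5-fold. Part of the Irf9 gene overlaps Rnf31 on the same strand and part of Irf7 overlaps Phrf1 on the other strand. The use of strand in counting has no entry in the labels, so some of these UMIs may belong to the neighbours.

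The effector genes split. Isg15, a ubiquitin-like protein that is attached to other proteins after interferon exposure, was at 5.33 CPM in Control and 15.4 CPM in the library labelled Runx1 KO, a ratio of 2.88 (2.66 to 3.12). Ifi27l2a, a small membrane protein of the Ifi27 family, was at 8.91 and 35.8 CPM, a ratio of 4.02 (3.79 to 4.27). Bst2, or tetherin, which holds budding virions at the cell surface, was at 120.1 and 108.9 CPM, a ratio of 0.907 (0.888 to 0.926). Bst2 was thus the single gene of the 9 that was lower in the library labelled Runx1 KO over all cells. Its ratio was 1.05 with the class makeup of Control, so the direction turned under that weighting, which also leaves out cells. Without the Unannotated cells alone it was 0.914. The part of the makeup by itself was not tested.

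The 3 immunity-related GTPases, which act on the membranes around intracellular pathogens, were all higher. Igtp was at 7.94 CPM in Control and 15.6 CPM in the library labelled Runx1 KO, a ratio of 1.96 (1.83 to 2.10). Ifi47 was at 55.9 and 95.05 CPM, a ratio of 1.70 (1.66 to 1.75). Irgm1, a regulatory GTPase of the family, was at 29.0 and 37.5 CPM, a ratio of 1.29 (1.25 to 1.35). Igtp overlaps Irgm2 on the same strand, and Ifi47 overlaps Olfr56 on the same and Gm12188 on the other strand.

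**Figure D2:**
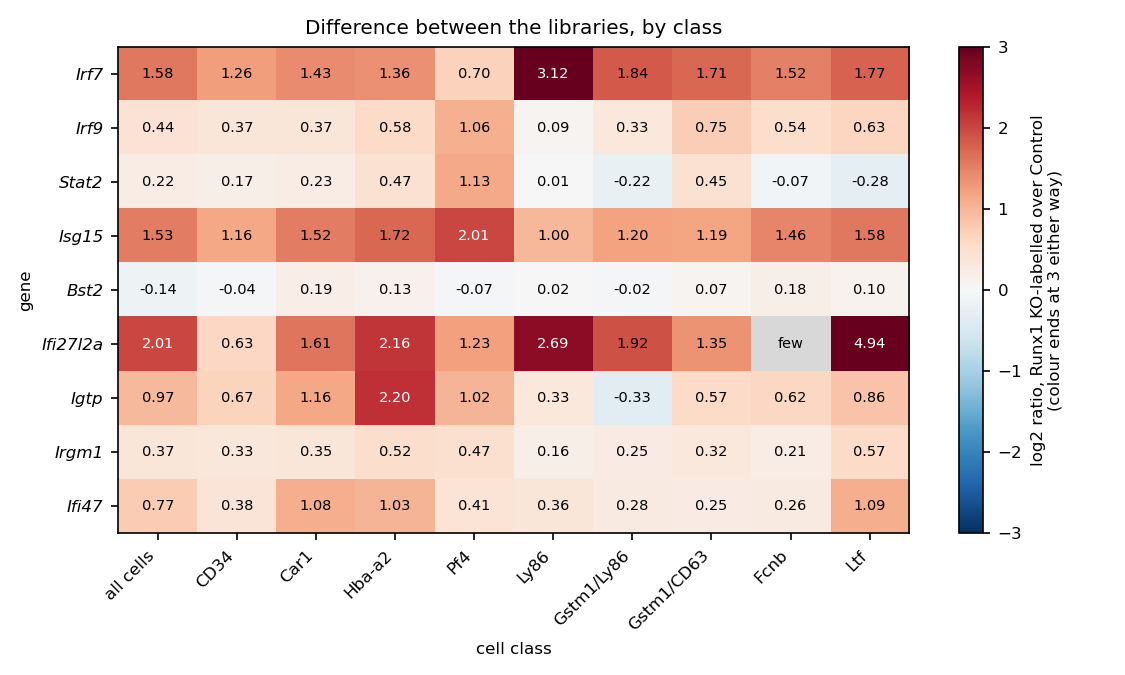
Log2 ratio of CPM, the library labelled Runx1 KO over Control, for each of the 9 genes (rows) in all cells and in the 9 compared classes (columns). Red is higher and blue lower in the library labelled Runx1 KO, colours end at 3 either way, and the grey field has too few UMIs for a ratio (2 in Control). Isg15, Irf7, Irf9, Irgm1 and Ifi47 are above 0 in all 9 classes.

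The difference was spread over the classes. Of the 81 pairs of a gene and a class, 74 had the higher CPM in the library labelled Runx1 KO. These 81 include pairs under the minimum, whereas the shares that follow cover measured genes alone, so the 2 are not on equal terms. Of all measured genes, the share with a ratio above 1 was 48.4% in the Car1 class, 48.6% in Pf4, 44.7% in Ly86, 49.5% in CD34, 57.5% in Gstm1/CD63, 50.5% in Hba-a2, 46.9% in Fcnb, 55.6% in Gstm1/Ly86 and 42.5% in Ltf. In 47 pairs the gene reached the minimum within the class. The interval of the ratio lay wholly above 1 in 33 of these 47 pairs and wholly below 1 in 0, against 20.4% and 20.6% of the pairs of all measured genes in these classes. Of the 47 pairs 16 were at least 1.5-fold higher and 0 at least 1.5-fold lower. With the Unannotated cells as a further class these counts were 17 and 2. Because the minimum is a mean over both libraries, a gene can pass it through the library where it is high. Among the pairs called higher, those under 10 CPM in Control were Irf7, Isg15 and Igtp in the Car1 class and Stat2, Isg15 and Igtp in Pf4. The same held for Igtp in the CD34 and Hba-a2 classes, Irf9 in Gstm1/CD63 and Ifi27l2a in Gstm1/Ly86.

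Class by class, the share of all genes that were at least 1.5-fold higher gives the background. In the Car1 class 4 of 8 measured genes passed (Irf7, Isg15, Igtp and Ifi47), against 5.23% of all measured genes. In the Pf4 class 4 of 7 passed (Irf9, Stat2, Isg15 and Igtp), against 9.64%. In the CD34 class 2 of 7 passed (Ifi27l2a and Igtp), against 3.96%, and in the Hba-a2 class 2 of 5 (Ifi47 and Igtp), against 3.61%. A single gene passed in the Ly86 class (Ifi27l2a, 1 of 6, against 2.84%), the Gstm1/CD63 class (Irf9, 1 of 4, against 2.13%), the Gstm1/Ly86 class (Ifi27l2a, 1 of 5, against 3.23%) and the Ltf class (Ifi27l2a, 1 of 1, against 8.36%). None of 4 passed in the Fcnb class, against 1.75%. The genes at least 1.5-fold lower were 0 in each class, against a background of 2.56% (Car1), 5.92% (Pf4), 1.59% (Ly86), 2.03% (CD34), 1.06% (Gstm1/CD63), 1.57% (Hba-a2), 2.43% (Fcnb), 1.27% (Gstm1/Ly86) and 10.3% (Ltf).

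Isg15, Irf7, Ifi47, Irf9, Irgm1 and Ifi27l2a had the higher CPM in the library labelled Runx1 KO in 9 of 9 classes. Ifi47, Irf9 and Irgm1 reached the minimum in 8 of these classes each, Ifi27l2a in 4, Isg15 in 2 and Irf7 in 1. The share of all genes that were higher in 9 of 9 classes was not counted. The Isg15 ratio was at least 2.00 in each of the 9 classes, from 2.00 in the Ly86 class to 4.03 in the Pf4 class, and each of the 9 intervals lay above 1, although Isg15 reached the minimum in the Car1 and Pf4 classes alone. In Control it rested on 6 UMIs in the Ltf class, 13 in Fcnb and 18 in Pf4. In the Gstm1/Ly86 class it rested on 27 and 26 UMIs, 8 of the latter in 1 cell, and the ratio was 0.816 with thinned cells. In the Car1 class Isg15 was at 7.48 CPM in Control and 21.5 CPM in the library labelled Runx1 KO. The Irf7 ratio ran from 1.63 in the Pf4 class to 8.71 in the Ly86 class, and 7 of 9 intervals lay above 1. In the Ly86 class Irf7 was at 1.00 CPM (37 UMIs) in Control and 8.72 CPM (128 UMIs) in the library labelled Runx1 KO. In the Fcnb and Gstm1/Ly86 classes Irf7 rested on 4 UMIs in Control each, and the interval reached below 1.

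Irf9 and Irgm1 differed by less than Isg15 over all cells. Irf9 ran from a ratio of 1.06 in the Ly86 class to 2.08 in the Pf4 class, where it was at 15.55 CPM in Control and 32.4 CPM in the library labelled Runx1 KO. Irgm1 ran from 1.12 in the Ly86 class to 1.48 in the Ltf class. Stat2 was higher in 6 of 9 classes, from 0.826 in the Ltf class (5 and 15 UMIs) to 2.18 in the Pf4 class (6.63 and 14.5 CPM). Bst2 lay between 0.954 in the Pf4 class and 1.14 in the Car1 class, with its interval above 1 in 2 of the 9 classes and below 1 in 0. In the Unannotated cells, outside these 9, Bst2 was at 152.7 and 75.3 CPM, a ratio of 0.493 (0.400 to 0.605).

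The GTPases Igtp and Ifi47 differed more in the Hba-a2 and Car1 classes than in most others. In the Hba-a2 class Igtp was at 3.81 CPM (51 UMIs) in Control and 17.5 CPM (191 UMIs) in the library labelled Runx1 KO, a ratio of 4.60 (3.36 to 6.40). The 8 mature neutrophil markers, all with a UMI, summed to 71.7 and 851 CPM in the Hba-a2 class, and their part in its results was not tested. In the Car1 class Igtp was at 8.77 and 19.6 CPM, a ratio of 2.24 (1.99 to 2.52). In the Gstm1/Ly86 class Igtp was at 9.20 and 7.31 CPM, its only ratio below 1 (0.795, 0.479 to 1.28, on 72 and 24 UMIs). Ifi47 in the Car1 class was at 50.9 and 107.5 CPM, 2.11 times as high (2.01 to 2.22). Its level in Hba-a2 cells was 18.5 and 37.8 CPM, 2.04 times as high (1.74 to 2.40). In the Ltf class the Ifi47 ratio was 2.13, on 8 and 62 UMIs. In the Gstm1/CD63, Fcnb, Gstm1/Ly86, Ly86, CD34 and Pf4 classes the Ifi47 ratio stayed between 1.19 and 1.32. The intervals of Ifi47 in the Car1 and Hba-a2 classes did not overlap those of these 6 classes.

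Within the Car1 class other markers moved with the libraries too. The 9 megakaryocyte markers, all with a UMI, summed to 278 CPM in Control and 729 CPM in the library labelled Runx1 KO. The 9 erythroid markers, also all with a UMI, summed to 3806 and 1352 CPM, and the 8 mature neutrophil markers to 32.5 and 165 CPM. The part of the marker shift, neutrophil RNA included, in the Car1 result was not tested. No UMI of S100a8 or S100a9, abundant neutrophil genes, was seen in 1856 of 2210 Control Car1 cells. In the library labelled Runx1 KO this held for 2014 of 3003 Car1 cells. Among these cells the ratios were 3.22 (2.80 to 3.70) for Isg15, 2.83 for Irf7, 2.27 for Igtp, 2.15 for Ifi47 and 3.05 for Ifi27l2a. Whether a cell shows such a UMI also depends on its depth.

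Ifi27l2a stood apart in where it was found. In the Ltf class it was at 27.5 CPM in Control (19 UMIs, 5 of 50 cells) and 844 CPM in the library labelled Runx1 KO (2116 UMIs, 151 of 221 cells), a ratio of 30.7 (19.6 to 51.0). The Ltf class, 2.80% of the cells of that library, held 40.6% of its Ifi27l2a UMIs and 1.72% of all its UMIs. S100a8 and S100a9 together were at 264174 and 265358 CPM in the Ltf class, so these neutrophil genes took the same share in both libraries. In the Ly86 class Ifi27l2a was at 17.96 and 116 CPM, a ratio of 6.45 (5.89 to 7.06), and there the 8 mature neutrophil markers summed to 28.0 and 501 CPM. In the library labelled Runx1 KO there were 3.18 Ifi27l2a UMIs per 1000 UMIs of S100a8 and S100a9 in the Ltf class and 301 in the Ly86 class, 80.1 in the Car1 class, 3.95 in the Hba-a2 class and 1.01 in the Fcnb class. In Control the same figure was higher in the Ly86 (1173), Car1 (124) and Hba-a2 (9.78) classes and lower in the Fcnb (0.195) and Ltf (0.104) classes. Over all cells it was 7.21 in Control and 7.45 in the other library, since S100a8 and S100a9 together went from 1236 to 4809 CPM. The part of neutrophil RNA in the Ifi27l2a results was not tested. Without the Ltf class the ratio over all cells was 2.45 in place of 4.02.

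The order of the classes differed from gene to gene. Bst2 was highest in the Ly86 class (167.2 CPM in Control, 169.3 in the library labelled Runx1 KO) and lowest in the Ltf class (26.1 and 27.9), and its next classes in both libraries were Gstm1/Ly86 and Gstm1/CD63. Ifi47 was highest in the Pf4 class (102.9 and 136 CPM) and lowest in the Ltf class (11.6 and 24.7), which overlapped the Hba-a2 class in Control. In Control Ifi47 in the Car1 class ranked sixth of the 9 classes, beside the Fcnb and Ly86 classes, whose intervals it overlapped. In the library labelled Runx1 KO it ranked second and overlapped the CD34 class.

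Irf9 and Irgm1 were highest in the Car1 class in both libraries, Irf9 at 31.0 and 40.1 CPM and Irgm1 at 39.7 and 50.7 CPM. For Irf9 the lowest class was Fcnb in both (8.80 and 12.8 CPM). Isg15 and Irf7 had their highest values in the Ltf class and the next in the Car1 class, with overlapping intervals in both libraries. The 9 classes of Stat2 and Igtp formed a series in which nearly every neighbour overlapped the next. Igtp in Control was lowest in the Hba-a2 class, the 1 class set apart from its neighbour, whereas in the library labelled Runx1 KO the Hba-a2 class was second highest.

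The classes under 50 cells in a library, and the Unannotated cells, are given as values. The Siglech class, named for a plasmacytoid dendritic cell gene, had 5 and 1 cells, and Bst2, which marks that cell type, was at 1618 and 1101 CPM there, its highest in each library. In the Cd74 class (56 and 7 cells) Ifi27l2a was at 83.4 and 684 CPM and Irf7 at 44.8 and 93.8 CPM. In the C1qb class, named for a macrophage gene, Ifi27l2a was at 11.3 CPM on 7 cells in Control and 2429 CPM on 6 cells in the other library. In the Unannotated cells Ifi27l2a ran the other way, at 81.4 CPM in Control and 17.9 CPM in the library labelled Runx1 KO, a ratio of 0.220 (0.147 to 0.320), while Ifi47 was at 58.4 and 139 CPM. Lymphoid progenitor and B cell markers summed to 1790 and 15.8 CPM in the Unannotated cells and megakaryocyte markers to 168 and 1460 CPM. The part of this marker shift was not tested.

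**Figure D3:**
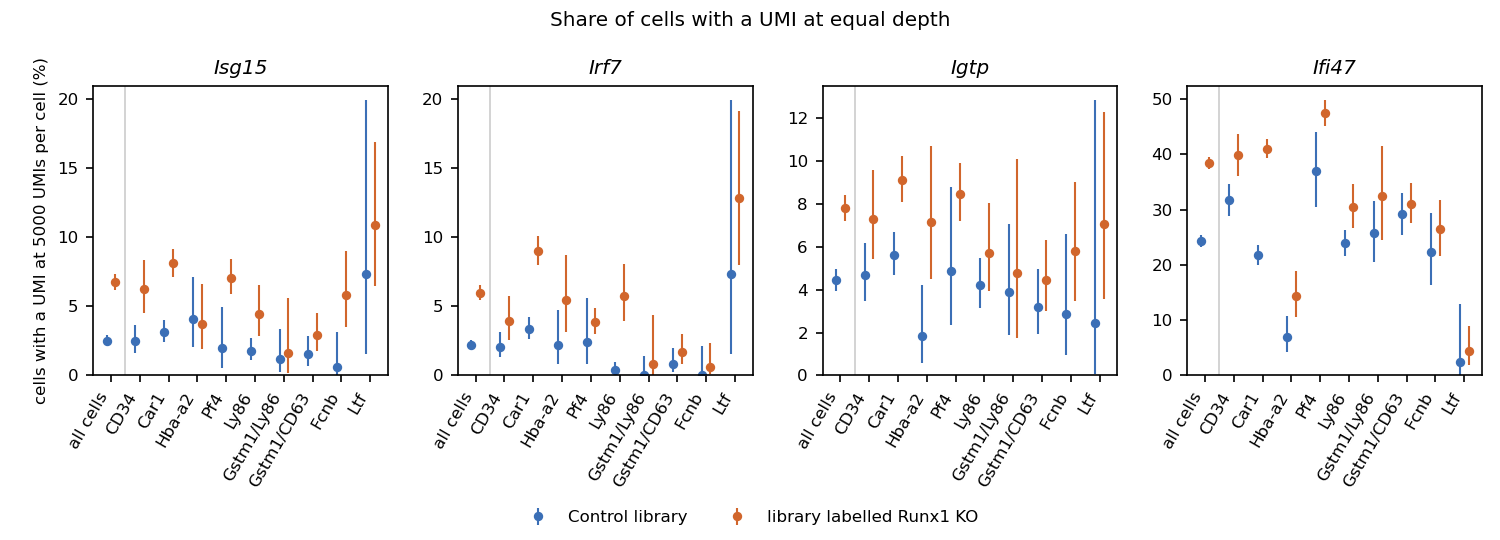
Share of cells with at least 1 UMI of Isg15, Irf7, Igtp and Ifi47 after each cell was thinned to 5000 UMIs, in all cells and by class, for Control (blue) and the library labelled Runx1 KO (orange); bars are exact binomial 95% intervals. In the Car1 class the orange points lie above the blue ones without overlap for all 4 genes (8.11% against 3.15% for Isg15).

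The higher sums were also higher shares of cells. Cells were thinned to 5000 UMIs so that the deeper Control cells had no advantage, which left out 465 and 346 shallower cells. With at least 1 UMI of Isg15 there were 2.52% (2.15 to 2.93) of 6441 Control cells and 6.73% (6.18 to 7.32) of 7543 cells of the library labelled Runx1 KO, and without thinning 8.43% and 17.0%. The thinned shares were 2.19% and 5.99% for Irf7, 4.44% and 7.80% for Igtp, 24.3% and 38.4% for Ifi47, and 4.07% and 6.42% for Ifi27l2a. They were 10.8% and 14.6% for Irf9, 5.50% and 6.44% for Stat2, 14.1% and 17.2% for Irgm1, and 42.4% and 38.4% for Bst2. For Stat2 and Irgm1 the unthinned shares ran the other way, at 20.8% and 19.2% and at 43.1% and 42.0%, in the libraries of unequal depth.

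No class is known to lack Ifi27l2a or Irf7, so the level of stray RNA could not be read from these cells. The Fcnb class is given beside the others because it was among the lowest for both genes. Whether its UMIs are stray RNA was not tested. In the Fcnb class at 5000 UMIs, Ifi27l2a was seen in 2 of 174 and 2 of 310 cells (1.15% and 0.645%), and Irf7 in 0 of 174 (up to 1.72% is allowed) and 2 of 310. In the Ly86 class Irf7 was seen in 5 of 1235 Control cells (0.405%) and 31 of 541 cells of the library labelled Runx1 KO (5.73%). Because the Fcnb class was chosen for its low values, no conclusion is drawn from a class lying above it. In the Ltf class Ifi27l2a was seen in 3 of 41 and 78 of 156 cells, and without thinning the 10 cells with the most held 21.8% of the 2116 UMIs.

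Cells that carried several of the 9 genes at once were more common in the library labelled Runx1 KO. At 5000 UMIs per cell, at least 4 of the 9 genes had a UMI in 100 of 6441 cells in Control (1.55%) and 329 of 7543 cells of the library labelled Runx1 KO (4.36%). In the Car1 class the shares were 1.96% and 6.64%, in the Ly86 class 1.05% and 5.18%, and in the Fcnb class 0.575% and 0.645%. At least 6 of the 9 genes had a UMI in 0 of 6441 cells in Control, for which up to 0.0466% is allowed, and in 30 of 7543 cells of the library labelled Runx1 KO (0.398%, 0.268 to 0.567). Of these 30 cells, 20 were in the Car1 class and 5 in the Ly86 class, and 7 carried at least 7 of the genes. The 1% of cells with the most UMIs of the 9 genes held 5.62% of those UMIs in Control and 9.40% in the library labelled Runx1 KO. Within the Car1 class that share was 5.68% and 5.69%, within the Ly86 class 4.94% and 10.9%, and within the Hba-a2 class 6.16% and 10.3%. A sum over the 9 genes can rest on 1 of them. At this depth Ifi27l2a had 124 and 484 UMIs in the Ly86 class and 5 and 684 in the Ltf class. Its part in these shares was not tested.

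**Figure D4:**
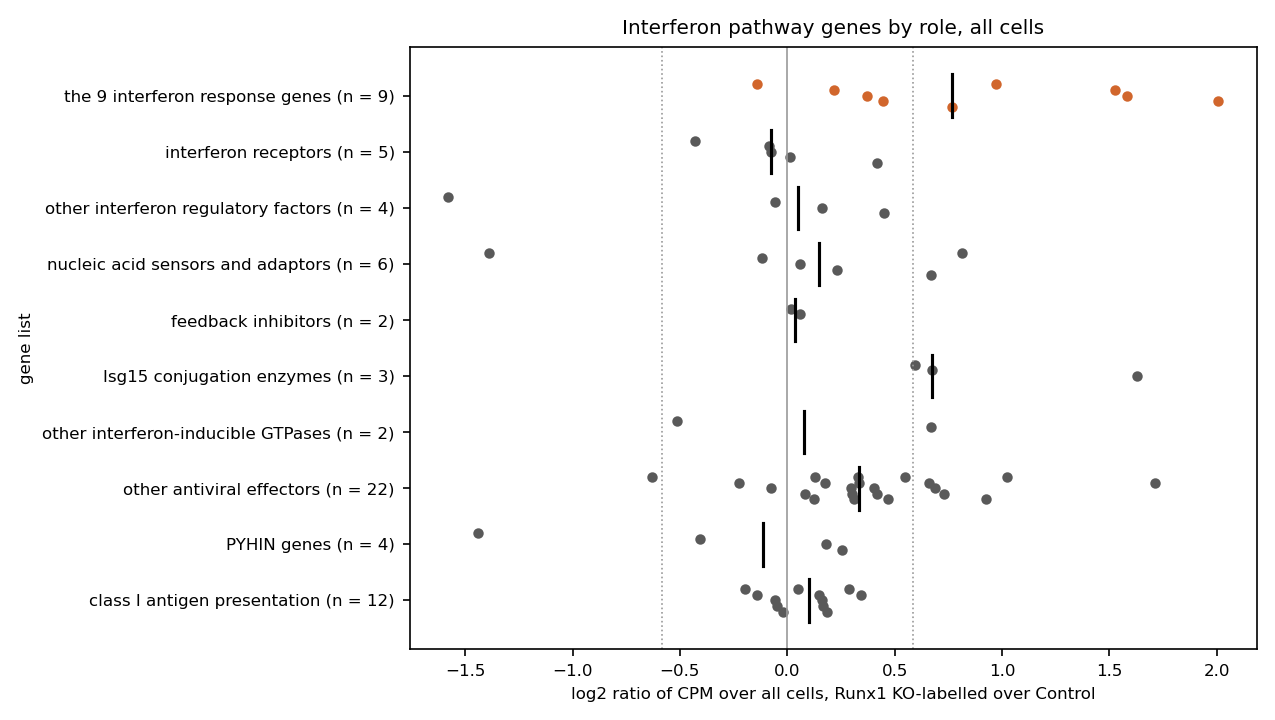
Log2 ratio over all cells of the library labelled Runx1 KO over Control for the 9 genes (orange, Irf7 included, median 0.77) and for the measured genes of 9 other interferon pathway lists (grey); black bars are medians and dotted lines mark 1.5-fold. The 3 Isg15 conjugation enzymes all lie beyond the upper line, while no receptor lies beyond either line.

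The rest of the interferon pathway was taken from 12 lists of 139 genes, of which 136 were in the files. Of these, 64 reached the minimum over all cells, and 12 were at least 1.5-fold higher (18.75%) and 4 at least 1.5-fold lower in the library labelled Runx1 KO. Of all 7776 measured genes 5.41% were at least 1.5-fold higher and 2.51% lower, and both counts lay above that background. The lists were chosen with earlier results of these data known, so no conclusion is drawn from this. With the class makeup of Control the counts were 7 higher and 1 lower. The median log2 ratio of the 64 genes was 0.18, against 0.61 for the measured genes of the 9 and 0.0041 for all genes. Among the 44 listed genes with at least 100 UMIs but too low a CPM, 26 were at least 1.5-fold higher and 6 lower. Of all 5011 genes under the same condition 19.1% were at least 1.5-fold higher and 16% lower.

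At the start of the pathway, the interferon genes themselves were hardly seen. Of 10 interferon genes only Ifng had a UMI, 2 in Control and 0 in the library labelled Runx1 KO. Of 5 measured receptor subunits none passed 1.5-fold either way. Il10rb, a shared subunit for interferon lambda and interleukin receptors, was at 39.0 and 52.1 CPM (1.34), Ifngr2 at 26.2 and 19.4 CPM (0.743) and Ifnar2 at 51.7 and 48.7 CPM (0.943). Ifngr2 and Ifnar2 turned to 1.04 and 1.08 with the class makeup of Control. Jak1 and Jak2, kinases of the receptors, were at 1.20 and 1.19.

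Among the other interferon regulatory factors, Irf2 was at a ratio of 1.37 and Irf1 at 1.12, while Irf8, which directs monocyte and dendritic cell development, was at 156 and 52.1 CPM (0.335). With the class makeup of Control the Irf8 ratio was 0.746, within 1.5-fold. Of 6 measured nucleic acid sensors and adaptors, the RNA sensors Ddx58 (RIG-I, 1.76) and Ifih1 (MDA5, 1.59) were higher, at 1.46 and 1.43 with the class makeup of Control. Tmem173, the adaptor STING, was at 27.6 and 10.5 CPM (0.382), and 0 of 8 classes with enough UMIs had a ratio above 1. With the class makeup of Control it was at 0.669, within 1.5-fold. The measured feedback inhibitors, Ptpn2 (1.01) and Pias1 (1.04), differed little.

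The 3 listed genes that attach Isg15 to other proteins were each at least 1.5-fold higher, as Isg15 was. Uba7, the enzyme that activates Isg15, was at 18.1 and 56.1 CPM (3.10, 2.97 to 3.23), the conjugating enzyme Ube2l6 at 12.9 and 20.6 CPM (1.60) and the ligase Herc6 at 13.6 and 20.6 CPM (1.51). Uba7 was higher in 9 of 9 classes, from 1.23 in the Fcnb class to 2.90 in the Pf4 class, and Isg15 itself from 2.00 to 4.03. With the class makeup of Control, Ube2l6 (1.27) and Herc6 (1.35) were within 1.5-fold and Uba7 was at 2.11.

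Among 22 measured antiviral effectors, 6 were at least 1.5-fold higher and 1 lower. Slfn2, a Schlafen gene of immune cells, was at 6.38 and 20.9 CPM (3.28). Ifi27, of the same family as Ifi27l2a, was at 64.4 and 131 CPM (2.03) and was higher in 9 of 9 classes, by 1.70 in the Hba-a2 class to 2.66 in the Pf4 class. Its evenness over classes differs from Ifi27l2a, which ran from 1.55 in the CD34 class to 30.7 in the Ltf class. Xaf1 was at 8.92 and 17.0 CPM (1.90), also higher in 9 of 9 classes. Chosen after their values were seen, Oas3, Oasl2, Rsad2 and Ifit1, textbook antiviral genes under the minimum, were at ratios of 4.99, 3.92, 4.29 and 3.54, each from under 4 CPM in Control. They do not stand for the listed genes of low CPM, of which 26 of 44 were at least 1.5-fold higher and 6 lower.

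Among the other GTPases, Gbp7 was at 31.2 and 49.7 CPM (1.59) and Gbp3 at 19.1 and 13.4 CPM (0.701, but 1.12 with the class makeup of Control). Of 4 measured PYHIN genes, which encode nucleic acid binding proteins, Aim2 was lower at 19.3 and 7.09 CPM (0.368), Ifi209 was at 0.753 and Mndal at 1.19. Ifi209 turned to 1.51 with the class makeup of Control, and Aim2 was at 0.578. Of 12 measured class I antigen presentation genes none passed 1.5-fold either way, with a median log2 ratio of 0.099. H2-K1 was at 727 and 921 CPM (1.27), H2-D1 at 609 and 742 CPM (1.22) and Psme2 at 174 and 152 CPM (0.873). None of the interferon-induced chemokines reached the minimum.

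Within the compared classes the other interferon genes were at least 1.5-fold higher in 15 of 62 measured in the Car1 class (5.23% of all measured genes), 18 of 62 in Pf4 (9.64%), 10 of 33 in Ltf (8.36%) and 13 of 55 in Hba-a2 (3.61%). They were 9 of 69 in the CD34 class (3.96%), 7 of 60 in Ly86 (2.84%), 7 of 58 in Gstm1/Ly86 (3.23%), 5 of 59 in Gstm1/CD63 (2.13%) and 1 of 57 in Fcnb (1.75%). At least 1.5-fold lower were 3 of 69 in the CD34 class (2.03% of all measured genes) and 2 of 59 in Gstm1/CD63 (1.06%). A single gene was lower in the Car1 (1 of 62, 2.56%), Pf4 (1 of 62, 5.92%) and Hba-a2 (1 of 55, 1.57%) classes. The same held for Gstm1/Ly86 (1 of 58, 1.27%) and Ltf (1 of 33, 10.3%). In the Ly86 (1.59%) and Fcnb (2.43%) classes 0 were lower. The median log2 ratio was between 0.12 (Ly86 class) and 0.36 (Hba-a2 class) in the 9 classes, above 0 in each.

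Genes that hold the ISRE core letters in their promoter were set beside genes that do not. Over all cells 27 of 226 measured genes with a match were at least 1.5-fold higher (11.9%), against 309 of 5993 without (5.16%). Outside the 9 genes and the other interferon genes the counts were 21 of 209 (10.0%) and 302 of 5950 (5.08%). For the other motifs the shares over all cells were 7.39% with and 5.23% without the GAS letters, and 7.38% with and 5.07% without the RUNX letters. In the Car1 class the ISRE counts were 26 of 224 (11.6%) and 295 of 5969 (4.94%). Among the 5 genes shown above, Bst2, Stat2 and Irgm1 were within 1.5-fold over all cells.

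The pattern of the 9 genes over the 18 points of class and library was summarised by the mean of their scaled log2(CPM + 10) levels. It was highest in the Car1 class of the library labelled Runx1 KO (2.18 SD units) and lowest in the Ltf class of Control (-1.45). Each of the 9 classes had the higher mean in the library labelled Runx1 KO. Igtp followed the mean most closely, with a Pearson r of 0.87 over 18 points, followed by Irf9 (0.86), Stat2 and Irgm1 (0.78 each), Isg15 (0.77) and Irf7 (0.69). Ifi47 (0.50), Ifi27l2a (0.25) and Bst2 (0.01) followed it less. Among the 9 classes Ifi27l2a had its highest level in the Ltf class and Bst2 in the Ly86 class. These correlations are descriptions over points that share 2 libraries, and each gene is part of its own mean. Irf7, Stat2 and Isg15 had a mean under 10 CPM over the points. Over Control points alone, Igtp had an r of 0.23 with Isg15, -0.10 with Irf7, 0.06 with Irf9 and 0.01 with Irgm1. Over all 18 points these were 0.80, 0.65, 0.66 and 0.57. With Stat2 the Control value was also lower (0.47 against 0.62). With Ifi47, Ifi27l2a and Bst2 it was higher (0.62, 0.30 and 0.29 against 0.44, 0.16 and -0.11).

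Of 7661 other genes ranked by likeness to that mean, the 8 closest were Parp9 (0.94), Parp14 (0.92), Xaf1 (0.88), Atxn7l1 (0.87), Sema4b (0.86), Vmp1 (0.85), Maf1 (0.85) and Zfp407 (0.84). Parp9, Parp14 and Xaf1 belong to the list of antiviral effectors above. Parp9 was at 15.9 and 20.98 CPM (1.32) and Parp14 at 14.5 and 23.4 CPM (1.61). Over the 9 Control points alone, which hold no difference between the libraries, their r was 0.84 for Parp9, 0.83 for Parp14, 0.83 for Xaf1 and 0.90 for Atxn7l1, but 0.61 for Sema4b and 0.52 for Vmp1. None of the 8 was among the 8 closest genes when Control was ranked by itself.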

How the data were processed

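The matrix holds counts, deposited by the authors as UMIs per gene and cell; Cell Ranger and mm10 are named in the submitters' processing notes (version and settings: not given in the sources used here). A deposited table of cells also holds counts (UMIs and genes per cell), a fraction (mitochondrial UMIs), a ratio (a size factor per cell) and other values (library name and cell class), per the file headers. The authors' way of assigning classes has no entry in the labels. The library named WT was taken as Control. The UMIs summed per cell equalled the annotation in all 14795 cells.

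The 9 genes and all lists were chosen with earlier results of these data known. UMIs were summed per library, or per class and library, and given as CPM. A gene was called when the ratio of CPM was at least 1.5-fold either way. A result on 1 listed gene, and the row of its list in a figure, are not reported here. Genes named were the 9, up to 3 measured genes of each pathway list with the largest absolute log2 ratio, the 8 closest in pattern, and Runx1; others are marked. Ratios have exact conditional binomial intervals, levels exact Poisson and shares Clopper-Pearson intervals, at 95%. Such intervals were tested on simulated data, the outcome of which is not given here. Those of ratios and levels do not cover the clustering of UMIs in cells. A share of 0 is given with the limit that 3 cells would set. No doublet caller was run; 1 alternative left out the deepest 5% of cells. The other alternatives changed the scaling, the pseudocount, the minimum, the threshold, the depth, the mitochondrial share, the cells per class or the classes included. Locations came from GENCODE M21, which holds 30934 of 31053 identifiers (99.6%). Ifi27l2b, a near copy of Ifi27l2a, had 0 UMIs in both libraries. Python 3.11.15, numpy 2.4.6, scipy 1.17.1, pandas 2.3.3 and matplotlib 3.10.9 were used.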

Additional observations from a re-analysis of the deposited data

Results flagged for a closer look

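Ifi27l2a went opposite ways in different cells of the same libraries. It was at 81.4 CPM in Control and 17.9 CPM in the library labelled Runx1 KO in the Unannotated cells, a ratio of 0.220, and at 3.14 and 9.56 CPM in the Car1 class, a ratio of 3.05. With 1 library per genotype the difference between these ratios was not tested. Without the Unannotated cells its ratio over all cells was 4.47 in place of 4.02.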

How the results depend on the processing

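No paired analysis was possible because each genotype had 1 library. Among genes over the minimum, no setting gave a gene of the 9 at least 1.5-fold lower over all cells. The 0 lower pairs of gene and class became 2 with the Unannotated cells as a class (Bst2 and Ifi27l2a) and were 0 under every other setting. The 16 higher pairs became 10 with cells thinned to 5000 UMIs, 38 with a minimum of 20 UMIs and no CPM minimum, and 5 with a minimum of 30 CPM in the higher library. The 4 higher genes became 2 at 2-fold and 2 with the 30 CPM minimum. Over the measured genes of the 9, the median log2 ratio of 0.61 became 0.42 with a pseudocount of 10 CPM. It was 0.77 with the 20 UMI minimum, 0.44 with the 30 CPM minimum and 0.38 with the class makeup of Control. Without the Car1 class it was 0.42. The 12 higher other interferon genes became 3 with the pseudocount, 3 at 2-fold, 46 with the 20 UMI minimum, 5 with the 30 CPM minimum and 7 with the class makeup of Control. The 4 lower ones became 12, 2 and 1 under the last 3 of these. The shares of all genes under these settings are not given here, so the counts cannot be set against a background. Over all cells, 19.1% of genes with at least 100 UMIs but under the CPM minimum were at least 1.5-fold higher and 16% lower. For genes over the minimum these shares were 5.41% and 2.51%. With the class makeup of Control, and without the Car1 class, 7 of the 9 genes reached the minimum, so fewer genes entered. The ratio reversed for Ifi27l2a in the Fcnb class (0.561) and for Isg15 in the Gstm1/Ly86 class (0.816) with thinned cells, on 2 and 2 and on 5 and 2 UMIs, which is where depth limits the values. Ifi27l2a over all cells was 7.33 as a mean of per-cell CPM and 2.45 without the Ltf class. The causes of the other changes were not tested. Leaving out single classes, and the Unannotated cells as a class, were chosen after the data were seen. Of 816 other ratios by class, 756 moved by less than counting error, and of 777 ratios over all cells, 597 did. The 597 include the ratios under the 20 UMI minimum, the 30 CPM minimum and the 2-fold threshold. Those settings cannot change the ratio of a gene, so the tally overstates how little the ratios moved.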
